A study of Sus scrofa with 12 samples.

Results

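The genes of TGF-beta signalling described here are its 3 ligands (TGFB1, TGFB2 and TGFB3), the latency protein LTBP1, the receptors TGFBR1, TGFBR2 and TGFBR3, and the SMAD proteins SMAD2, SMAD3 and SMAD7. They were taken by gene symbol from the gene count tables, which list 25880 genes, and all 10 were found and were among the 13373 genes that passed edgeR's filter on low counts. The samples were longissimus dorsi (LD) muscle of 12 Iberian pigs, castrated males of a closed commercial population that were fattened on acorns and grass in a free-range system and slaughtered in the second year of life. The High MB group held 6 pigs with high breeding values for myoglobin (0.159 to 0.206) and a myoglobin content of 2.48 ± 0.0657 mg/g (SD, n = 6). The Low MB group held 6 pigs with low breeding values (-0.248 to -0.149) and 1.39 ± 0.147 mg/g (SD, n = 6). Each library came from a different pig. The genes were taken up because they lie upstream of matrix genes whose level tended to be higher in the High MB group.

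TGF-beta ligands are secreted in a latent form, bound to their own propeptide and to proteins such as LTBP1 that anchor the complex in the extracellular matrix. Once released, the ligand brings the type II receptor TGFBR2 and the type I receptor TGFBR1 together, with TGFBR3 (betaglycan) presenting the ligand, above all TGFB2. The receptors phosphorylate SMAD2 and SMAD3, which move to the nucleus with SMAD4 and switch on matrix genes, while SMAD7 is an induced inhibitor that acts on the receptors. In skeletal muscle the pathway is known for connective tissue growth and for restraining the differentiation of muscle precursors.

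Counts assigned to genes summed to between 38914271 and 91318334 per pig, and 5 of the libraries (High MB pigs 4 and 6, and pigs 1, 5 and 6 of the Low MB group) were deep, while 7 had a standard depth. The libraries of High MB pig 2 and Low MB pig 4 stood apart: their median correlation with the other pigs was 0.948 and 0.962, against 0.967 to 0.975 for the other 10. Of 9 muscle fibre markers 4 were among the genes tested, and their summed level was between 33291 and 110578 CPM (counts of a gene scaled by library size and TMM factor), lowest in High MB pig 2. The gene of myoglobin itself was not among the rows with a symbol and was not analysed here.

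LD is a mixture of muscle fibres, connective tissue, vessels and immune cells, and in bulk RNA fewer cells of a type and less RNA per cell cannot be told apart. No marker of these cells passed adjustment. Of 9 macrophage markers, 7 had an unadjusted edgeR p under 0.05 (8.46% of all genes did), each with a higher mean in the High MB group, and the median log2 fold change over Low MB was 0.93. Their summed level ran from 66.2 to 151 CPM in the High MB group and from 31.8 to 76.9 in the Low MB group. Without High MB pig 2 it was 5 of 9, with a median of 0.59. Of 10 fibroblast markers it was 6 (median 0.64), with sums of 787 to 1357 and 414 to 1008 CPM. For endothelium it was 1 of 7 tested markers, and 5 of 7 without Low MB pig 5 or 2 of 7 without High MB pig 1 or 2, with sums of 148 to 205 and 92.0 to 214 CPM. For smooth muscle and pericytes it was 1 of 8, 2 with depth as a covariate, and 0 to 2 with 1 pig left out (0 without High MB pig 6, and 2 without High MB pig 1, High MB pig 2, Low MB pig 5 or Low MB pig 6), with sums of 225 to 943 and 190 to 495 CPM. Of 6 adipocyte markers it was 2 (median 0.87), with 5 (median 1.33) without Low MB pig 5, 4 with depth as a covariate, and 1 when pig 1, 3, 4 or 6 of the High MB group or pig 1, 2, 3 or 4 of the Low MB group was left out. Sums were 108 to 361 and 96.9 to 266 CPM. Of the red cell markers it was 2 of the 2 tested (median 0.75), and 1 without High MB pig 5, with sums of 66.4 to 146 and 38.3 to 84.3 CPM. No marker with a row in these 6 lists was at 0 in all pigs. Of the 4 muscle fibre markers tested, TNNT1 had an unadjusted edgeR p under 0.05, with a log2 fold change of 0.56. Those of ACTA1, CKM and TNNT3 were -0.24, -0.17 and -0.03. The macrophage sum was highest in High MB pig 2 and lowest in Low MB pig 1, which were also the highest and the lowest pig for TGFB1, TGFBR2, TGFBR3 and LTBP1. The part of these cells in the differences given below was not tested.

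No member was called different between the groups at the limits of an adjusted p under 0.10 and an absolute log2 fold change (log2 FC, positive where the High MB group is higher) over 0.58, by edgeR's quasi-likelihood test or by DESeq2. By edgeR no gene of the 13373 was called (0%), and 1132 genes (8.46%) had an unadjusted p under 0.05, while DESeq2 called 29 genes (0.151% of the 19158 it gave an unadjusted p). The lowest adjusted p of a member was 0.563 by edgeR and 0.373 by DESeq2, both for TGFB2. At an unadjusted p under 0.05, TGFB1 and TGFBR3 had the higher mean in the High MB group (5.33% of all genes did) and TGFB2 the lower (3.13% of all genes did). The median log2 FC was 0.00 over the 10 members, 5 above and 5 below 0, and -0.02 over all genes tested, with the 5th percentile at -0.36 and the 95th at 0.67. The count of 3 members at p under 0.05 was 0 without High MB pig 5, and 1 without Low MB pig 2, without Low MB pig 5 or with the depth of the libraries as a covariate. The 2 higher members, TGFB1 and TGFBR3, both missed p under 0.05 also without High MB pig 2 and without Low MB pig 1, the ends of the macrophage sum, where TGFB2 and SMAD3 were the 2 lower ones. Without Low MB pig 4 the count stayed at 3, but all 3 were higher members and TGFB2 was not among them.

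**Figure D1:**
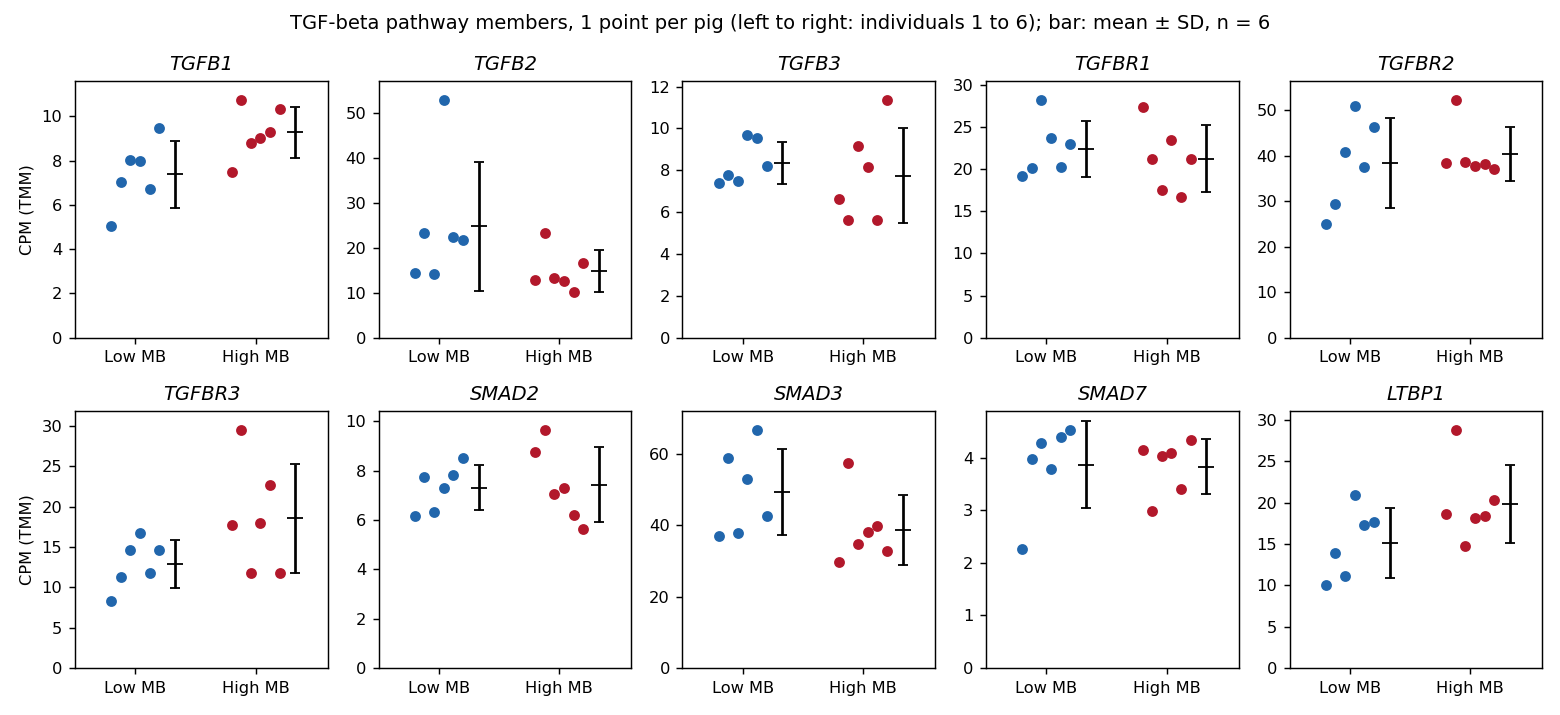
Level of each member in each pig, as CPM after TMM scaling on a linear axis from 0, with 1 panel per gene, 1 point per pig and a bar at the group mean with its SD (n = 6). The groups overlap in all 10 panels, and the widest spread is that of TGFB2 in the Low MB group, from 14.1 to 52.8 CPM.

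TGFB1, the ligand most studied in fibrosis, lies in RefSeq's annotation of Sscrofa11.1 on chr6:49332169-49348642, minus strand (ENSSSCG00000003017). Its level ranged from 7.49 to 10.7 CPM with a median of 9.16 in the High MB group, and from 5.02 to 9.47 with a median of 7.53 in the Low MB group. In the High MB group 2 of 6 pigs were above every Low MB pig, and the lowest of all was Low MB pig 1. The means were 9.28 ± 1.16 and 7.38 ± 1.50 CPM (SD, n = 6), a log2 FC of 0.33 (SE 0.15, 95% interval 0.01 to 0.66), with an unadjusted edgeR p of 0.0461, an adjusted p of 0.578 and an exact permutation p of 0.0325. Over the 12 pigs it had r = 0.82 with the macrophage marker sum and 0.72 with the fibroblast sum, as described further on. By depth, the difference was 0.49 among the deep and 0.23 among the standard libraries.

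TGFB2, the ligand that depends most on TGFBR3 for binding, lies on chr10:8306136-8435307, plus strand (ENSSSCG00000010816). It ranged from 10.1 to 23.3 CPM (median 13.0) in the High MB group and from 14.1 to 52.8 CPM (median 22.0) in the Low MB group. In the High MB group 4 of 6 pigs were below every Low MB pig, and the highest High MB value was that of pig 2. The means were 14.8 ± 4.66 and 24.8 ± 14.3 CPM (SD, n = 6), a log2 FC of -0.74 (SE 0.30, 95% interval -1.38 to -0.10), with an unadjusted edgeR p of 0.0260, an adjusted p of 0.563 and an exact permutation p of 0.0693. Low MB pig 4, at 52.8 CPM, weighed on this estimate: without it the log2 FC was -0.36, and without it and High MB pig 2 it was -0.53. By depth, it was -0.40 among the deep and -0.87 among the standard libraries.

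TGFB3, the third ligand, lies on chr7:99133873-99162239, minus strand (ENSSSCG00000002385). Its values were 5.60 to 11.4 CPM (median 7.37) in the High MB group and 7.40 to 9.68 CPM (median 7.98) in the Low MB group, so the High MB pigs spread over the whole Low MB range and beyond both of its ends. The log2 FC was -0.11 (SE 0.18, 95% interval -0.49 to 0.28, edgeR adjusted p = 0.896), and it was 0.20 among the deep and -0.32 among the standard libraries. It was -0.25 without High MB pig 6 and -0.0082 without High MB pig 2.

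The TGFB1 and TGFB2 means thus lay on opposite sides, which can be read within each pig without scaling between libraries. The log2 ratio of TGFB2 to TGFB1 CPM was 0.63 ± 0.33 in the High MB group (SD, n = 6, from 0.11 to 1.11) and 1.61 ± 0.64 in the Low MB group (SD, n = 6, from 0.81 to 2.72). It was below every Low MB pig in 5 of 6 High MB pigs, the exception being High MB pig 2 at 1.11. The ratio is not scaled for gene length, a factor that is the same in every pig, so it compares pigs and not the levels of these genes. This ratio was chosen after its values were seen and is given without a test.

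The 300 bases before the RefSeq gene start of the 3 ligands are shown because these genes differed in direction or spread. They were read from Sscrofa11.1 in the direction of transcription, at chr6:49348643-49348942, minus strand, chr10:8305836-8306135, plus strand, and chr7:99162240-99162539, minus strand. Capitals mark matches on either strand to the GC box GGGCGG (in TGFB1 and TGFB2) or to the AP-1 sequence TGACTCA (in TGFB3).
TGFB1: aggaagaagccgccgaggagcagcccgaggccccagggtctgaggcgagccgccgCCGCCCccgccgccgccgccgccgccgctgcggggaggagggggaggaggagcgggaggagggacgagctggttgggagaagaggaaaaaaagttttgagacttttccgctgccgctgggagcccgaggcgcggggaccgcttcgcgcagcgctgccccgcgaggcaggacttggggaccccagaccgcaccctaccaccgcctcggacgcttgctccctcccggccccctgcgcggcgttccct
TGFB2: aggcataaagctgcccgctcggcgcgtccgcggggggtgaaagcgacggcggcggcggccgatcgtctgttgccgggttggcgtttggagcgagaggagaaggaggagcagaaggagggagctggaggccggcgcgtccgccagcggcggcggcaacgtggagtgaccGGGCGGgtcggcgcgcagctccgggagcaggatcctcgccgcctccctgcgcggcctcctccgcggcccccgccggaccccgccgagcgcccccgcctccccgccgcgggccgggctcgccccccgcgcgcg
TGFB3: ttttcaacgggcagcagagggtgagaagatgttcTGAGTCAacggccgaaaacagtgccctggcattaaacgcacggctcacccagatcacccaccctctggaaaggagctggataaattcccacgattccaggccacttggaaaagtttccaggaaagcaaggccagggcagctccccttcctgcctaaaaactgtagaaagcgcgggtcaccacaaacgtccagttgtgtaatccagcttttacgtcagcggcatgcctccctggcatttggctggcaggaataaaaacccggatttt

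The GC content was 73.7% before TGFB1, 78.7% before TGFB2 and 52.7% before TGFB3. The GC box was in the window of 8 of the 10 members and of 47.6% of 19556 protein-coding genes, and the AP-1 sequence in that of TGFB3, TGFBR2 and 3.42% of all. Neither the cAMP response element TGACGTCA (1.76% of all promoters) nor the TATA box letters TATAAA (11.9%) were in a member's window. No matches to different motifs overlapped in a member's window, and a match is a description of letters only.

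LTBP1, which ties the latent complex to the matrix, lies on chr3:106300748-106724538, minus strand (ENSSSCG00000008510). Its level ran from 14.7 to 28.8 CPM (median 18.5) in the High MB group and from 9.99 to 21.0 CPM (median 15.6) in the Low MB group. Pig 2 alone of the High MB group exceeded the Low MB range. The means were 19.8 ± 4.74 and 15.2 ± 4.24 CPM (SD, n = 6), a log2 FC of 0.39 (SE 0.19, 95% interval -0.03 to 0.80), with an edgeR adjusted p of 0.597 and an exact permutation p of 0.0909. It was 0.40 in the deep libraries and also in the standard ones, and 0.27 without High MB pig 2. Its r with the macrophage marker sum was 0.87 and with the fibroblast sum 0.74.

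Of the receptors, TGFBR3 had the largest difference between the group means. Betaglycan, its product, has no kinase activity and hands ligand to TGFBR2. The gene lies on chr4:125109939-125310788, plus strand (ENSSSCG00000006911). Its level ran from 11.8 to 29.5 CPM (median 17.9) in the High MB group and from 8.33 to 16.8 CPM (median 13.2) in the Low MB group, with 4 of 6 High MB pigs above every Low MB pig. The means were 18.6 ± 6.76 and 12.9 ± 3.02 CPM (SD, n = 6), a log2 FC of 0.53 (SE 0.23, 95% interval 0.04 to 1.02), with an unadjusted edgeR p of 0.0361, an adjusted p of 0.570 and an exact permutation p of 0.0931. It was 0.37 among the deep and 0.46 among the standard libraries, and also 0.37 without High MB pig 2. Its r with the macrophage marker sum was 0.86.

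The medians of the kinase receptors were close in both groups. TGFBR1, the type I receptor (chr1:240842735-240918267, plus strand, ENSSSCG00000005382), ran from 16.6 to 27.3 CPM (median 21.2) in the High MB group and from 19.2 to 28.2 CPM (median 21.6) in the Low MB group. TGFBR2, the type II receptor (chr13:16784370-16875828, plus strand, ENSSSCG00000011226), ran from 37.0 to 52.3 CPM (median 38.3) and from 25.1 to 51.1 CPM (median 39.1). The groups overlapped for both genes. For TGFBR2, Low MB pigs 1 and 2 lay below every High MB pig, and High MB pig 2 lay above every Low MB pig. The log2 FC was -0.07 for TGFBR1 (SE 0.14, 95% interval -0.37 to 0.22, edgeR adjusted p = 0.905) and 0.08 for TGFBR2 (SE 0.16, 95% interval -0.27 to 0.42, edgeR adjusted p = 0.922).

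SMAD3, the receptor-activated SMAD that binds DNA directly, lies on chr1:164998457-165124455, plus strand (ENSSSCG00000004952). Its level ran from 29.7 to 57.5 CPM (median 36.4) in the High MB group and from 37.0 to 66.7 CPM (median 47.8) in the Low MB group, with 3 of 6 High MB pigs below every Low MB pig. The means were 38.8 ± 9.88 and 49.3 ± 12.1 CPM (SD, n = 6), a log2 FC of -0.35 (SE 0.18, 95% interval -0.74 to 0.04), with an unadjusted edgeR p of 0.0764, an adjusted p of 0.606 and an exact permutation p of 0.106. Without High MB pig 2 and Low MB pig 4 it was -0.45, and it was -0.42 among the deep and -0.32 among the standard libraries.

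SMAD2, the other receptor-activated SMAD of the pathway (chr1:97415360-97511388, minus strand, ENSSSCG00000004505), ran from 5.65 to 9.63 CPM (median 7.18) in the High MB group and from 6.14 to 8.50 CPM (median 7.53) in the Low MB group. SMAD7, the inhibitor, lies on the same chromosome (chr1:98512800-98543924, minus strand, ENSSSCG00000004507) and ran from 2.99 to 4.33 CPM (median 4.06) and from 2.26 to 4.53 CPM (median 4.13). The groups overlapped for both genes, and for SMAD7 no High MB pig left the Low MB range. The log2 FC was 0.02 for SMAD2 (SE 0.15, 95% interval -0.30 to 0.34, edgeR adjusted p = 0.983) and -0.01 for SMAD7 (SE 0.18, 95% interval -0.40 to 0.37, edgeR adjusted p = 0.991). These intervals leave room for differences of up to about the size seen for SMAD3 or TGFB1. SMAD7 also had the fewest reads, 139 to 403 counts per pig, against 1156 to 4191 for SMAD3.

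SMAD7 is itself a target of SMAD proteins, which bind the palindrome GTCTAGAC. Its 300 bases before the gene start are shown because this palindrome is in them and in no other member's window. They lie at chr1:98543925-98544224, minus strand, in Sscrofa11.1, with the palindrome in capitals, 165 to 158 bases before the RefSeq gene start.
SMAD7: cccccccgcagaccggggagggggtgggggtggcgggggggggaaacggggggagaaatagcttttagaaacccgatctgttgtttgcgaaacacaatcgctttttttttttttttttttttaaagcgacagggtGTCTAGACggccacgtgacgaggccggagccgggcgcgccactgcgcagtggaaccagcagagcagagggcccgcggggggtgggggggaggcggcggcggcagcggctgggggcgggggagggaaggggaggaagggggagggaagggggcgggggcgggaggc

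The palindrome was in the window of 39 of the 19556 protein-coding genes (0.199%). It was in none of the windows of 103 other genes of the pathway lists below. The window before SMAD7 had a GC content of 67.3%.

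**Figure D2:**
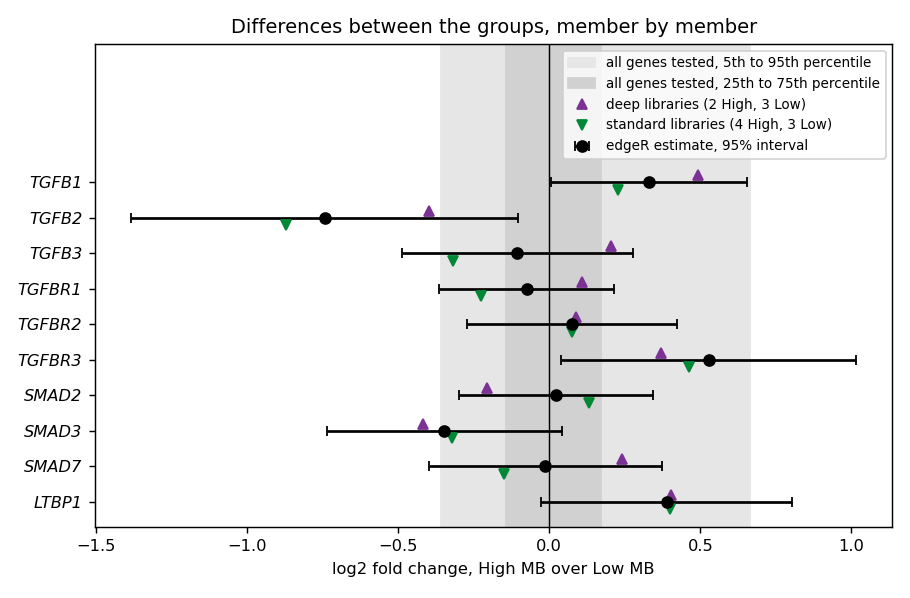
Log2 FC of each member, High MB over Low MB, from edgeR with its 95% interval (all 12 pigs, 6 per group), with triangles for the differences among the deep (up) and the standard (down) libraries and grey bands for the 5th to 95th and 25th to 75th percentiles of all genes tested. The intervals of TGFB1 and TGFBR3 lie above 0 and that of TGFB2 below 0, before any adjustment, and the values within depth classes lie on both sides of 0 for TGFB3, TGFBR1, SMAD2 and SMAD7.

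Levels of different genes were put in order per length, as CPM per kb of exon in RefSeq, which is not the annotation used for counting. The means given first are over all 12 pigs. TGFBR2 was highest with 9.13 ± 1.81 CPM per kb (SD, n = 12), followed by SMAD3 with 7.34 ± 1.98 and TGFBR1 with 3.70 ± 0.598. TGFB1 (3.02 ± 0.586), LTBP1 (2.94 ± 0.828), TGFBR3 (2.48 ± 0.914), TGFB2 (2.44 ± 1.41) and TGFB3 (2.11 ± 0.448) lay close together. SMAD7 (0.728 ± 0.125) and SMAD2 (0.696 ± 0.113) were lowest, so of the receptor-activated SMADs the reads came mostly from SMAD3. Of the neighbours in this order, SMAD3 was above TGFBR1, and TGFB3 above SMAD7, in 12 of 12 pigs, and the others changed places: TGFB2 was above TGFB3 in 5 of 12 pigs (1 High MB and 4 Low MB), and TGFBR3 above TGFB2 in 6 of 12 (5 High MB and 1 Low MB). TGFB1 was above TGFB2 per kb in 6 of 6 High MB pigs and in 3 of 6 Low MB pigs. The order of the ligand means was TGFB1, TGFB3, TGFB2 in the High MB group and TGFB2, TGFB1, TGFB3 in the Low MB group. The Low MB order turned on Low MB pig 4: without it the means per kb were 2.63 for TGFB1, 2.36 for TGFB2 and 2.12 for TGFB3, while leaving out any other pig kept the order of its group.

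**Figure D3:**
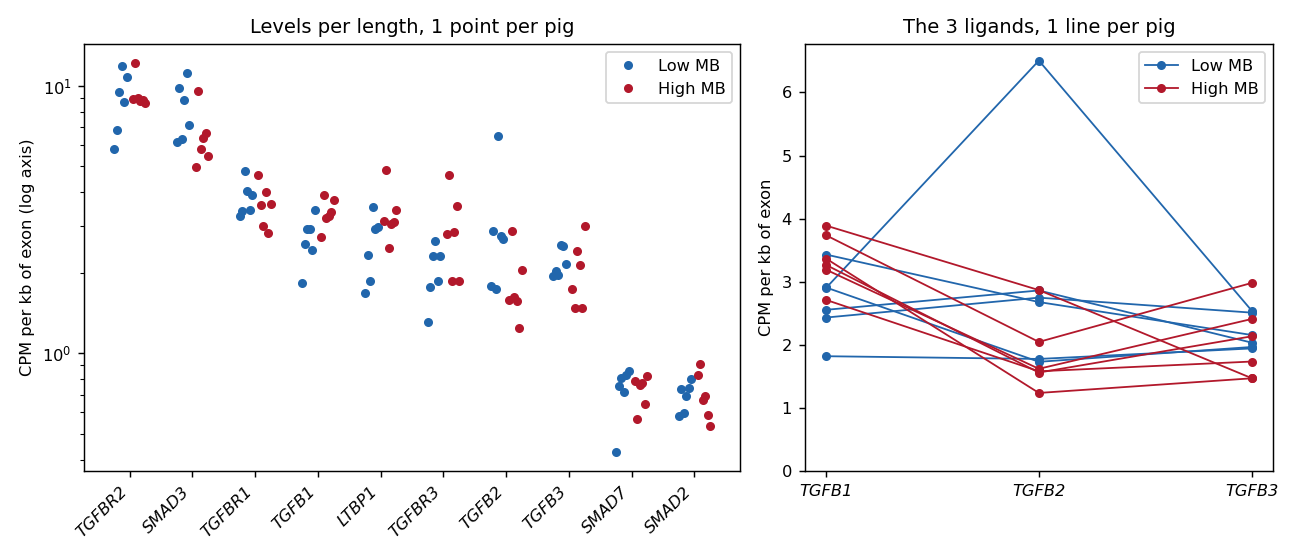
Left, level of each member (CPM per kb of RefSeq exon, log axis) in each of the 12 pigs, with the genes in the order of their means and the groups in separate colours; right, the 3 ligands on a linear axis from 0, with 1 line per pig. TGFBR2 and SMAD3 stand above the others, with means of 9.13 and 7.34, SMAD7 and SMAD2 lie below 1, and the line of Low MB pig 4 peaks at TGFB2.

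The members were then compared with each other over the 12 pigs, by Pearson's r of log2 CPM with a permutation test and adjustment over the 45 pairs. The values of r ran from -0.62 to 0.74 with a median of 0.21, and 5 pairs had an adjusted permutation p under 0.10 (0.0828 for each). They were TGFB1 with TGFBR2 (r = 0.72, rho = 0.50), TGFB1 with LTBP1 (r = 0.72, rho = 0.60), TGFBR2 with TGFBR3 (r = 0.73, rho = 0.61), TGFBR2 with LTBP1 (r = 0.73, rho = 0.50) and TGFBR3 with LTBP1 (r = 0.74, rho = 0.72). By Spearman's rho no pair passed after adjustment. These pairs join 4 genes, a ligand, its anchor and a pair of its receptors, while TGFBR1, TGFB2, TGFB3 and the SMADs were in none of the 5 pairs. After centring each group on its mean, 4 pairs passed: TGFB1 with TGFBR2, TGFBR2 with TGFBR3 and TGFBR2 with LTBP1 (adjusted permutation p = 0.0589 each), and TGFB2 with LTBP1 (r = 0.84, adjusted permutation p = 0.0198). TGFB1 with LTBP1 (adjusted permutation p = 0.210) and TGFBR3 with LTBP1 (0.163) then missed the limit. TGFB2 with LTBP1 had r = 0.34 before centring, and -0.02, also not centred, without High MB pig 2 and Low MB pig 4. Within the groups its r was 0.79 (High MB) and 0.86 (Low MB). A centred r without these pigs was not computed. Over the 6 pairs of TGFB1, TGFBR2, TGFBR3 and LTBP1 r was 0.67 to 0.74. It was 0.24 to 0.37 without the 2 pigs farthest from the median of the pair's first gene in this order. Leaving them out narrows the range of that gene, so the lower r cannot show that the relation rested on those pigs. Within the High MB group r was 0.22 to 0.82, within the Low MB group 0.60 to 0.96, within the 5 deep libraries 0.73 to 0.90 and within the 7 standard ones 0.62 to 0.80. Without High MB pig 2 and Low MB pig 4 it was 0.57 to 0.77, and no pair of members passed the adjusted permutation test among the 10 pigs left.

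Outside these 4 genes, TGFB2 and SMAD3, the 2 members with the lowest log2 FC, had r = 0.66 with each other (rho = 0.63, permutation p = 0.0147, adjusted p = 0.110). It was 0.85 without the 2 pigs farthest from the median of TGFB2. The most negative pair was TGFB3 with TGFBR3, with r = -0.62 (permutation p = 0.0338, adjusted p = 0.190). That relation had r = -0.91 within the High MB group and 0.48 within the Low MB group, and the difference between the groups was not tested.

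**Figure D4:**
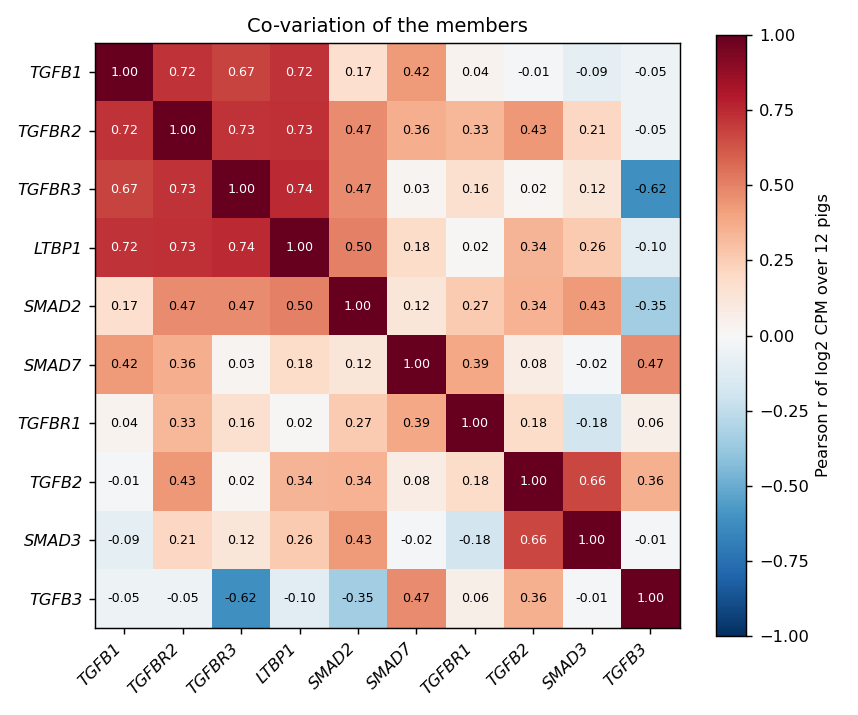
Pearson's r of log2 CPM for each pair of members over the 12 pigs, printed in each cell and as a colour scale from -1 to 1. TGFB1, TGFBR2, TGFBR3 and LTBP1 form a block with r of 0.67 to 0.74, and the lowest value is that of TGFB3 with TGFBR3 (-0.62).

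The relation of each member with the summed markers of 6 cell types was added after the data had been seen, as 60 relations over the 12 pigs with permutation tests. LTBP1 had r = 0.87 with the macrophage sum (rho = 0.79, permutation p = 0.000480, adjusted p = 0.0144), TGFBR3 had r = 0.86 (rho = 0.85, permutation p = 0.000400, adjusted p = 0.0144) and TGFB1 r = 0.82 (rho = 0.80, permutation p = 0.000960, adjusted p = 0.0192). Without the 2 pigs farthest from the median of the marker sum these values were 0.66, 0.65 and 0.63. Within the groups LTBP1 had r = 0.74 (High MB) and 0.89 (Low MB), TGFBR3 0.82 and 0.84, and TGFB1 0.54 and 0.84, so r was positive within each group as well. At an adjusted permutation p of 0.0873 followed TGFBR2 with the macrophage sum (r = 0.73, and 0.38 without the 2 farthest pigs), LTBP1 with the fibroblast sum (r = 0.74, and 0.24 without the 2 farthest pigs) and TGFB1 with the fibroblast sum (r = 0.72, and 0.62). By Spearman's rho (0.57, 0.53 and 0.69) these 3 missed the limit (adjusted permutation p = 0.472, 0.472 and 0.197), while the 3 before them passed (0.0684 to 0.0714). The other relations did not pass an adjusted p of 0.10, among them every one of TGFB2 and SMAD3. With the macrophage sum TGFB2 had r = 0.04 over the 12 pigs, but 0.52 (High MB) and 0.69 (Low MB) within the groups. SMAD3 had r = 0.06, and 0.91 and 0.27 within the groups. Centred on the group means, r was 0.61 for TGFB2 and 0.58 for SMAD3 (adjusted permutation p = 0.197 each). Without High MB pig 2 and Low MB pig 4, and not centred, it was -0.37 and -0.28. After centring each group on its mean, 3 of the 60 passed, those of TGFBR2, TGFBR3 and LTBP1 with the macrophage sum.

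**Figure D5:**
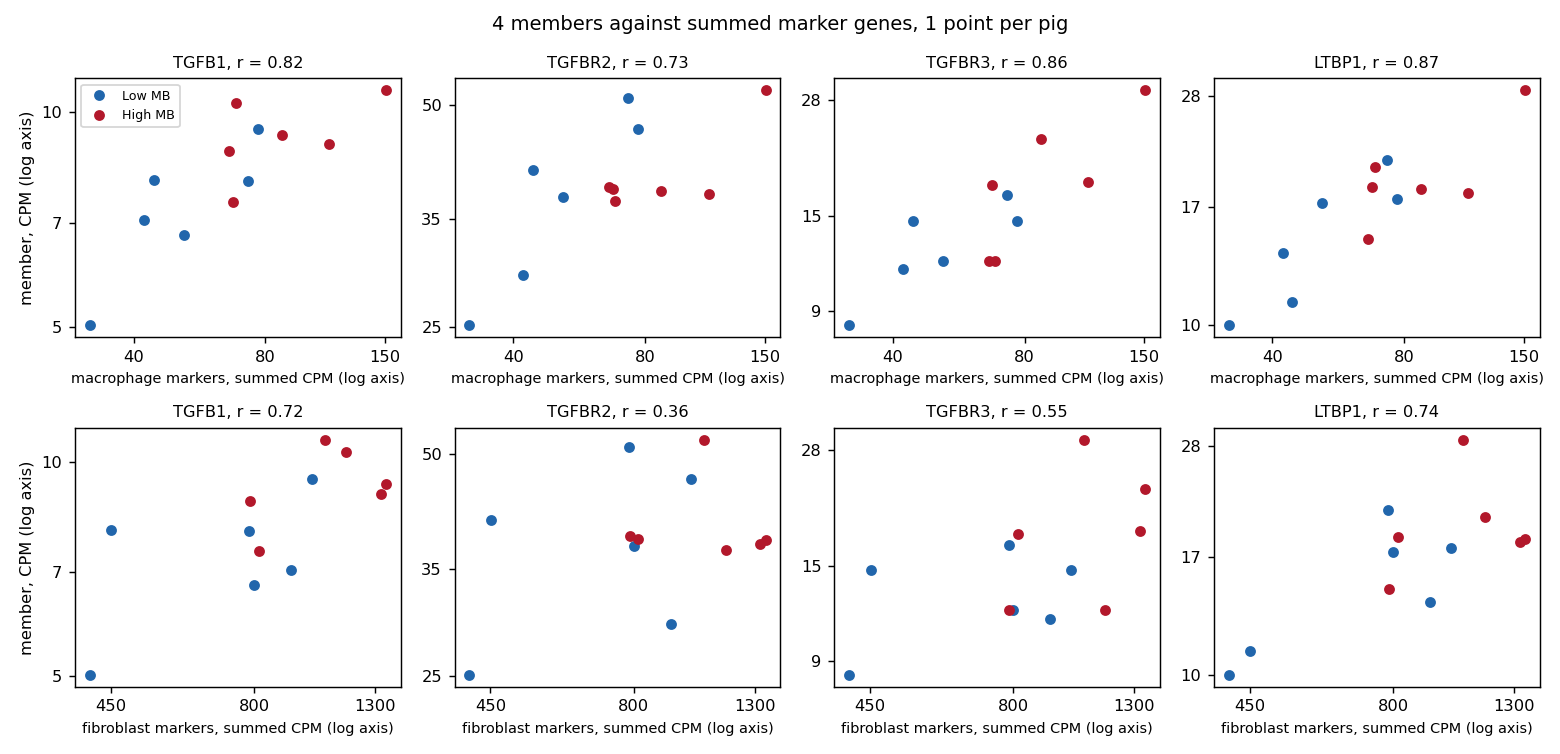
CPM of TGFB1, TGFBR2, TGFBR3 and LTBP1 against the summed CPM of 9 macrophage markers (top row) and of 10 fibroblast markers (bottom row), on log axes, 1 point per pig with the groups in separate colours and Pearson's r of the log2 values above each panel. Pigs with a higher macrophage sum have higher values of all 4 genes (r from 0.73 to 0.87), with Low MB pig 1 at the lower and High MB pig 2 at the upper end, while r with the fibroblast sum runs from 0.36 to 0.74.

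The genes nearest to each member by Pearson's r of log2 CPM over the 12 pigs, among all genes tested, are given as a description. For TGFBR3 they were MRC1 (r = 0.95), the mannose receptor of macrophages, PDGFRA (0.94), a receptor that marks fibroblasts, and NHLRC3 (0.92). For LTBP1 they were FCER1G (0.95), the shared chain of Fc receptors, LOXL2 (0.94), which crosslinks collagen, and COL6A3 (0.93), a collagen VI chain. MRC1, PDGFRA and COL6A3 are also in the marker lists above. For TGFB1 they were CDH6, MYL5 and FES (0.92, 0.92 and 0.91), and for TGFBR2 ARHGAP23, SPINT2 and SETDB1 (0.91, 0.90 and 0.90). TGFB2 was nearest to CAPRIN1 (0.95) and EIF3M (0.90), TGFB3 to SLC4A4 (0.85) and UNC45A (0.83) after a gene without a symbol, and TGFBR1 to ATF7IP (0.89) and PHLPP1 (0.83), with a gene without a symbol between them. SMAD2 was nearest to ACER3 (0.93), ROCK1 and QSER1 (0.86 each), SMAD3 to DESI1 (0.90) and KIF2A (0.85) after a gene without a symbol, and SMAD7 to EGFLAM (0.91), LHFPL3 (0.90) and CHD6 (0.89). The share of all genes with r over 0.7 was highest for LTBP1 (4.46%) and lowest for TGFB3 (0.389%).

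Around the members, the 20 genes for holding or releasing latent TGF-beta had 14 log2 FC above 0 and 6 below, where 6270 of the 13373 genes tested were above. None passed adjustment, and 5 had an unadjusted edgeR p under 0.05, all with the higher mean in the High MB group (5.33% of all genes did), and the median log2 FC was 0.20 against -0.02 over all genes, and 0.33 without Low MB pig 4 or 0.31 without Low MB pig 5. FBN1, the fibrillin of the microfibrils on which latent complexes rest, had a mean of 50.4 ± 10.1 CPM in the High MB group (SD, n = 6) and 30.0 ± 9.29 CPM in the Low MB group, a log2 FC of 0.75 (SE 0.20, edgeR adjusted p = 0.563), with 4 of 6 High MB pigs above every Low MB pig. The small proteoglycans fibromodulin (FMOD, log2 FC 0.74) and asporin (ASPN, 0.59), which bind TGF-beta, and LTBP2 (0.43), a microfibril protein of the LTBP family, followed. The count of 5 was 2 without Low MB pig 1 and 3 without High MB pig 6 or Low MB pig 3, and it was 8 without High MB pig 2 and Low MB pig 4 together. Several of these genes are made by fibroblasts, whose marker sums are given above, and the part of these cells was not tested. The members were taken up for matrix genes that tended higher, so the count of 5 is not independent evidence of a direction.

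The SMAD partners and inhibitors had 14 of 18 log2 FC below 0, as had 7103 of the 13373 genes tested, and a median of -0.15, which was -0.09 without High MB pig 5. An unadjusted edgeR p under 0.05 was reached by 3 with a lower and 1 with a higher mean in the High MB group (3.13% and 5.33% of all genes). USP9X, which removes ubiquitin from SMAD4, ran from 50.7 to 65.5 CPM in the High MB group and from 66.2 to 77.4 CPM in the Low MB group. These ranges do not overlap, as those of 0.194% of all genes tested in this direction, and the exact permutation p of 0.00216 is the smallest that the 924 splits can give. Its log2 FC was -0.25 (SE 0.089, edgeR adjusted p = 0.563). RNF111 (-0.40), a ubiquitin ligase that removes SMAD7 and SKIL, and EP300 (-0.21), an acetyltransferase that works with SMAD3, were the other lower genes, and SMURF1 (0.41), a ubiquitin ligase that SMAD7 brings to the receptors, was the higher. The count of 4 was 1 without High MB pig 4 or High MB pig 5 and 2 without Low MB pig 1 or Low MB pig 2.

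Among 29 genes known to respond to TGF-beta, 8 had an unadjusted edgeR p under 0.05, of which 7 had the higher mean in the High MB group (5.33% of all genes did) and 1 the lower (3.13% did), and the median log2 FC was 0.36. The lowest p-values were mostly those of matrix genes, and since the TGF-beta genes were taken up for matrix genes that tended higher in these pigs, this count is not independent evidence of a direction. They include elastin (ELN, log2 FC 0.89, SE 0.27), the collagen chain COL1A2 (0.71, SE 0.25) and the crosslinking enzyme LOX (0.68, SE 0.24), each with an edgeR adjusted p of 0.563. TIMP1, an inhibitor of matrix proteases, had a log2 FC of 1.87 (SE 0.73) that came from a single High MB pig at 87.6 CPM, since the medians were 5.32 and 4.35 CPM and the exact permutation p was 0.323. The lower gene was KLF10 (-0.62), an early response gene of the pathway, named here after its value was seen. The count of 7 was 4 without High MB pig 4. The list shares collagen genes with the fibroblast markers and smooth muscle genes with the pericyte markers.

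In each of the remaining branches 1 gene had an unadjusted edgeR p under 0.05, which is 14.3% of the receptor partners, 12.5% of the kinase branch outside the SMADs and 4.76% of the BMP and activin branch, against 8.46% of all genes. Of 7 receptor partners tested it was DAB2 (log2 FC 0.60), an adaptor of the TGF-beta receptors, and not by the caveolin gene CAV1 (0.24), the next in order. The kinase branch holds kinases and genes that act with them. Of its 8 genes it was TAB2 (-0.31), the adaptor of the kinase TAK1, whose own gene MAP3K7 had -0.15. Of 21 genes of the BMP and activin branch it was FSTL1 (0.51), a secreted BMP antagonist, with BMP6 at 0.33. The median log2 FC was 0.05 for the receptor partners, -0.15 for the kinase branch and 0.05 for the BMP and activin branch. With 1 pig left out these medians ran from -0.02 to 0.13, from -0.21 to -0.03 and from 0.01 to 0.11. The count for the receptor partners was 0 without High MB pig 2 and 2 without Low MB pig 5, and that for the kinase branch 2 without High MB pig 2. For the BMP and activin branch it was 4 without High MB pig 1, High MB pig 2 or Low MB pig 6, 3 without High MB pig 3, 2 without Low MB pig 5, and 0 without High MB pig 4 or Low MB pig 3. With depth as a covariate the count of this branch was 3, and with RLE size factors in edgeR 2.

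Within each group, the members were compared with the myoglobin content of the pigs, 10 relations in each group of 6 with exact permutation tests of the pairings. None of the 20 had an exact permutation p under 0.05. The lowest was 0.0944 (adjusted p = 0.993), for SMAD2 in the Low MB group, where r was -0.76. The sign of r was the same in both groups for 4 of the 10 members. For the breeding values, also with 20 relations, none was under 0.05 either, with a lowest exact permutation p of 0.0833 (adjusted p = 0.906) and the same sign of r in both groups for 5 of 10.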

How the data were processed

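RNA was sequenced from the LD muscle of 12 pigs, with 1 library per pig, and groups were read from the labels of the pigs. The authors deposited the raw counts of reads per gene that HTSeq made after Trim Galore, with HISAT2 alignment to Sscrofa11.1. The annotation release and the strand setting of the counting are not given in the sources used here, so overlapping and antisense genes cannot be told apart. The transcript counts were not used here. A chi-square of the counts of any 2 pigs, divided by its degrees of freedom, was 33.3 to 598 over the 66 pairs, so no library was a copy of another.

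Genes were tested with edgeR 4.0.16 in R 4.3.3 (TMM, filterByExpr, glmQLFit, glmQLFTest) on all 12 pigs without covariates, with Benjamini-Hochberg adjustment over the 13373 genes tested, and called at an adjusted p below 0.10 with a log2 FC beyond 0.58 in either direction. DESeq2 1.42.0 was an alternative, and the edgeR script was tested on simulated data. Single genes were also compared by exact two-sided permutation over the 924 splits of the pigs, for which the smallest p is 0.00216, on log2 CPM with a prior count of 2. Counts per pig for the members were 139 or more. p-values measure the spread between pigs. Correlations were tested by permuting pigs, and exon lengths and the 300 bases before gene starts came from the genome and RefSeq annotation of Sscrofa11.1, read with pysam 0.24.0. The members and gene lists were chosen with earlier results of these data known. The genes named are all members, in each list up to 4 genes of lowest p under 0.05 (or the 2 of lowest p), and the 3 genes with the highest r with each member. The alternatives were other size factors, filters and robust estimation, DESeq2, a term for depth, a block of individual numbers, the fit without the 10 genes of highest counts, other limits, and each pig left out in turn. Leaving out High MB pig 2 and Low MB pig 4 together, and differences within the depth classes (under or over 50000000 counts), were added after the data had been seen.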

Additional observations from a re-analysis of the deposited data

Results flagged for a closer look

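In 20 groups of 6 pigs (10 members in each of 2 groups), the gap between the highest or lowest pig and its nearest neighbour was set against the whole range of the group, on log2 CPM. It stood out in 2, and chance would flag about 1 group in 20. TGFBR2 in the High MB group had High MB pig 2 at 52.3 CPM, and this gap was 0.872 of the range. SMAD7 in the Low MB group had Low MB pig 1 at 2.26 CPM, with a gap of 0.741 of the range. High MB pig 2 also had the lowest median correlation with the other pigs (0.948) and the highest macrophage marker sum (151 CPM), and Low MB pig 1 the lowest macrophage marker sum (31.8 CPM). On the CPM scale the gap stood out in 4 groups: in these (0.891 and 0.672 of the range), for TGFB2 in the Low MB group, where Low MB pig 4 was at 52.8 CPM (0.763), and for SMAD3 in the High MB group, where High MB pig 2 was at 57.5 CPM (0.639).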

How the results depend on the processing

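No member passed the called limits under any alternative that was run. The members' log2 FC changed sign 12 times with 1 pig left out and 7 times under the other alternatives. With 1 pig left out, the median of the receptor partners (0.05) was -0.022 without Low MB pig 1 and -0.0038 without Low MB pig 2. That of the members (0.0048) ran from -0.069 to 0.054 and was below 0 without High MB pig 1, 2 or 4 or Low MB pig 1, and that of the muscle fibre markers (-0.10) was 0.046 without High MB pig 2. With 1 pig left out, the log2 FC crossed 0 for 4 members that were near it: TGFBR1 (-0.16 to 0.016), TGFBR2 (-0.021 to 0.19), SMAD2 (-0.048 to 0.092) and SMAD7 (-0.13 to 0.068). SMAD7 also turned to 0.038 with upper quartile factors, 0.0083 with at least 10 counts in every pig, 0.0013 without the 10 genes of highest counts and 0.066 without High MB pig 2 and Low MB pig 4 together. The last setting gave 0.043 for TGFB3, -0.043 for SMAD2 and 0 pairs of members that varied together, against 5. DESeq2 called 29 genes, and edgeR 0. Without High MB pig 6 the lowest adjusted p of any gene was 0.107. The cause of these shifts was not tested. With upper quartile factors the median log2 FC of all genes was 0.04, and 914 genes had the higher and 201 the lower mean at an unadjusted p under 0.05, against 713 and 419.

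The individual numbers did not pair the pigs: same-numbered pigs correlated at -0.21 to 0.14, 1 of 6 pairs over 0.1, and 0 of 6 High MB pigs correlated best with their own number. These values are on another scale than the median correlations between pigs given above. With the number as a replicate block, 0 genes were called, 957 had an unadjusted p under 0.05, and the log2 FC of SMAD7 was 0.0059.

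With 6 pigs per group the standard errors of the members' log2 FC were 0.14 to 0.30, so differences of that size were not detectable. The members had 139 to 4191 counts per pig.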

Other observations

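The AP-1 sequence TGACTCA was in the 300 bases before the gene start of 4 of 103 other genes of the pathway lists (CDKN2B, ITGB6, KLF10 and NOX4), against 3.42% of all protein-coding genes, and TATAAA in 14 of them, against 11.9%. The marker sum of satellite cells ran from 3.88 to 7.43 CPM in the High MB group and from 4.42 to 9.84 CPM in the Low MB group. Within each pig the log2 ratio of SMAD3 to SMAD2 CPM, not scaled for gene length, was 2.37 ± 0.33 in the High MB group (SD, n = 6) and 2.72 ± 0.28 in the Low MB group, and that of TGFBR3 to TGFBR1 was -0.25 ± 0.57 and -0.82 ± 0.24. These ratios were chosen after their values were seen and carry no test.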
